A study of Homo sapiens with 40 samples.

Results

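The prostaglandin genes examined here were PLA2G4A, PTGS1, PTGS2, PTGES, PTGES2, PTGES3, PTGER2, PTGER4, SLCO2A1 and HPGD, 10 of the 60708 genes in the count files. They were taken by symbol, after the Ensembl identifiers of the files had been matched to GENCODE gene names, and all 10 were found. They were chosen by name as a pathway, with no threshold on a measured value but with earlier results of these libraries known, so the adjusted p-values below are those of fits across all genes and describe the genes without standing as independent support.

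Prostaglandin E2 is a short-lived lipid signal that acts on the cell that makes it and on its neighbours. Phospholipase A2 frees arachidonic acid from membranes, cyclooxygenases turn it into prostaglandin H2, and terminal synthases turn that into prostaglandin E2, which is then sensed by receptors on the cell surface or taken up and oxidised to an inactive form. In epithelial tumours the inducible cyclooxygenase PTGS2 is often high and the degrading enzyme HPGD is often low. mRNA of these genes was measured, not the enzymes and not the lipid.

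The 24 RNA-seq libraries were of human breast cell lines in 8 groups of 3 biological replicates. MI is MCF-10A, an immortalised breast epithelial line, and MII is the HRAS-transformed derivative of it. Both were grown as spheres in ultra-low attachment plates, untreated (MI Ctrl and MII Ctrl) or with TGFβ1 at 2.5 ng/ml for 16 h (MI TGFb and MII TGFb). The other groups were MDA-MB-231, a triple-negative breast cancer line, grown in monolayer without added TGFβ1: untreated (WT), a CRISPR/Cas9 knockout of SLUG, whose gene is SNAI2 (SLUG KO), a scrambled control siRNA (Csi), and siRNA against SMAD2, SMAD3 and SMAD4 together (siSMAD2/3/4). According to the methods of the study the knockout cells were expanded from single-cell clones, so clone and knockout cannot be told apart, and the clones were checked by digital PCR and immunoblotting. The Csi and siSMAD2/3/4 libraries carry another batch label than the other 6 groups, and no test was run across the batch labels.

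Each library held between 14124688 and 38406952 counts in genes. A floor of 3 counts corresponded to 0.0791 to 0.204 CPM (a gene's count scaled to a common library size, with TMM factors over the 24 libraries). Replicates correlated at 0.984 to 0.994 in log2 CPM in 7 of the groups, whereas WT replicate 2 correlated with the other WT libraries at 0.957 and 0.952, and the results against WT are therefore also given without it. HRAS was at 215.7 to 223 CPM in MII Ctrl against 39.6 to 41.5 in MI Ctrl. SMAD2, SMAD3 and SMAD4 were all lower in siSMAD2/3/4, by 1.92, 0.69 and 1.72 on the log2 scale. SNAI2 went the other way in the knockout: it was at 63.6, 57.8 and 64.3 CPM in the libraries labelled SLUG KO and at 30.2, 20.9 and 33.7 CPM in WT, a log2 fold-change of 1.10 (SE 0.21, adjusted p = 0.0399), and of 0.94 without WT replicate 2 (SE 0.10, adjusted p = 2.54e-06). Counts over the whole gene cannot show a small insertion or deletion in the guide's target exon, and these libraries are called the libraries labelled SLUG KO throughout.

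The 6 epithelial markers (KRT5, KRT14, KRT17, TP63, CDH1 and EPCAM) summed to 1094 to 3995 CPM in the spheres and to 13.8 to 42.9 CPM in MDA-MB-231. The 3 mesenchymal markers (VIM, ZEB1 and CDH2) summed to 4.19 to 22.6 CPM in the spheres and to 636 to 1131 CPM in MDA-MB-231. KRT14, a basal marker, was low in MI Ctrl (1.56 CPM) and TP63, another basal marker, was low in MII Ctrl (0.62 CPM). The 3 blood-cell markers never summed above 0.738 CPM. SMAD7, a TGFβ target, had log2 fold-changes with TGFβ of 0.11 in MI (adjusted p = 0.365) and -0.14 in MII (adjusted p = 0.315), neither past the threshold, and was higher in siSMAD2/3/4 than in Csi (0.25, adjusted p = 0.0201).

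RefSeq start regions (GRCh38.p14, 250 bases before to 50 bases after the annotated start) were on hand for 9 of the 10 genes, 13 regions in all, because HPGD, PTGS1 and PTGES2 have more than 1 start. Regions of HPGD, PTGS2 and PTGER4 are printed because these genes had the largest differences in TGFβ response between the lines. HPGD has 2 regions, and the one with matches is printed. The other, at chr4:174522844-174523143, held none. Capitals mark exact matches on either strand to 3 strings: CAGAC, the half-site bound by SMAD proteins, CACCTG, an E-box bound by SNAI factors, and TATAAA, the TATA box. No matches overlapped.
HPGD chr4:174522439-174522738, minus strand: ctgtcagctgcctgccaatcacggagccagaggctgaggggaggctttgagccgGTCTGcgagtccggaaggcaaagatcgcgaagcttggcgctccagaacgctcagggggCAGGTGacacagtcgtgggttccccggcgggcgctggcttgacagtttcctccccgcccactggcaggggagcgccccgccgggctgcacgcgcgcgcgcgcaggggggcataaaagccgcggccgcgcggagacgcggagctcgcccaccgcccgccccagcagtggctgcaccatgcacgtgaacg
PTGS2 chr1:186680374-186680673, minus strand: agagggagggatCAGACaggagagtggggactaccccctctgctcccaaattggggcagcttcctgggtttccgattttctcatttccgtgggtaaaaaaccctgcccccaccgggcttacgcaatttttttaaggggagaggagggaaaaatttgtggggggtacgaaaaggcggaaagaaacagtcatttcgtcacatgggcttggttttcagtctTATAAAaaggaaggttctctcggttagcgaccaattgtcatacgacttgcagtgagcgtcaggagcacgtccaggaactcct
PTGER4 chr5:40679665-40679964, plus strand: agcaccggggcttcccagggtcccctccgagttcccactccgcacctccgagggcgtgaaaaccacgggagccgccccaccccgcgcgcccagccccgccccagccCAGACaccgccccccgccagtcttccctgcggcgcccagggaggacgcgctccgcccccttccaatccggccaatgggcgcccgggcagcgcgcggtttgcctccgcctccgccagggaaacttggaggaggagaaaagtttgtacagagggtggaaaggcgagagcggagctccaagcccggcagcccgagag
The printed HPGD region held 1 SMAD half-site, which began 196 bases before the start, and 1 E-box at 138 bases before it. The PTGS2 region held a SMAD half-site at 238 bases and a TATA box at 32 bases before the start. The PTGER4 region held 1 SMAD half-site at 144 bases before the start. Such short strings are common: of 35116 regions of the same length, 45.3% held the SMAD half-site, 20.6% the E-box and 11.5% the TATA box. A half-site was found in at least 1 region of 6 of the 9 genes, an E-box in 2 (HPGD and PTGES2) and a TATA box in 2 (PTGS1 and PTGS2). These counts are of genes, some with more than 1 region, and the shares are of regions, so they cannot be compared directly. A match of letters is not evidence of binding, and the chromatin accessibility samples of the series were not analysed here.

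Per kilobase of exon, the make-up of the pathway differed between the sphere lines and MDA-MB-231. In MI Ctrl the order was PTGES (632 CPM per kb), HPGD (295), PTGES3 (45.1), PTGES2 (8.48), PLA2G4A (4.36), PTGS2 (4.31), PTGS1 (2.28) and PTGER4 (0.959). In WT it was PTGES3 (62.1), PTGES (23.5), PTGES2 (7.27), PTGER4 (4.33), PTGS1 (0.638), PTGER2 (0.314), PTGS2 (0.193), PLA2G4A (0.178) and HPGD (0.136). HPGD thus stood near the top in MI Ctrl and near the bottom in WT. In the MDA-MB-231 groups of the other batch label it stood in the middle, at rank 5 in Csi (1.11) and rank 6 in siSMAD2/3/4 (0.879). PTGER2 and SLCO2A1 were last in every sphere group.

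**Figure D1:**
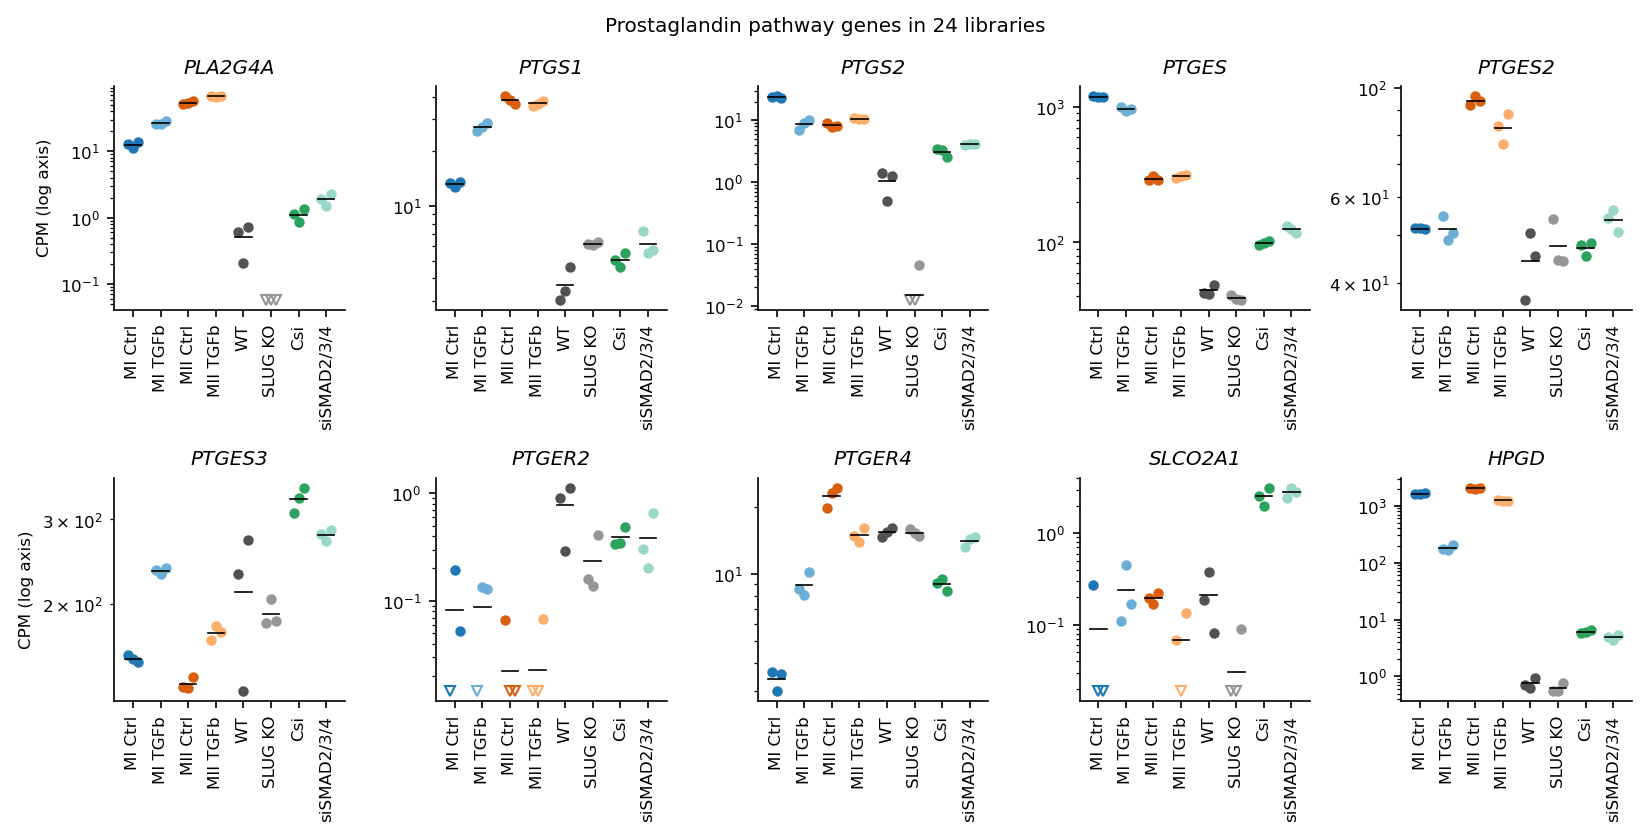
CPM of each of the 10 genes (log axes, which differ between panels) in 3 libraries of each of 8 groups; points are libraries, black lines group means, and open triangles at the base libraries with 0 counts. HPGD spans from 2076 CPM in an MII Ctrl library to 0.548 in a library labelled SLUG KO, while PTGES2 stays between 36.9 and 96.3 CPM.

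TGFβ in MI spheres changed 7 of the 8 genes that had enough counts to be tested: PLA2G4A, PTGS1, PTGES3 and PTGER4 rose, and PTGS2, PTGES and HPGD fell (edgeR quasi-likelihood test, Benjamini-Hochberg adjusted p under 0.05). Of all 16863 genes tested, 56% passed the same threshold, 28.7% higher and 27.4% lower. Of the 7, 4 (HPGD, PTGS2, PTGER4 and PLA2G4A) also changed by more than 1 on the log2 scale and so were DEGs (differentially expressed genes), 2 in each direction, against 13.6% of all genes (3.64% higher and 9.92% lower). In MII spheres 6 of 8 passed the threshold, where 57.6% of 16396 genes did (29.9% higher and 27.6% lower): PLA2G4A, PTGS2 and PTGES3 rose, and PTGES2, PTGER4 and HPGD fell. None was a DEG with edgeR or DESeq2, since the largest change was -0.75, against 10.6% of all genes (3.12% higher and 7.5% lower). The libraries of treated and untreated spheres did not overlap for 7 of 8 genes in MI and 6 of 8 in MII, and the same held for 61.6% and 61.4% of all genes. The median log2 fold-change of the 8 was 0.22 in MI and -0.04 in MII, against -0.02 over all genes in both lines.

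HPGD, at the far end of the pathway, had the largest change. It encodes 15-hydroxyprostaglandin dehydrogenase, which starts the breakdown of prostaglandin E2, and lies at chr4:174490175-174523154 on the minus strand (GRCh38, GENCODE 38). In MI Ctrl it was at 1579, 1618 and 1696 CPM and in MI TGFb at 173, 167 and 206 CPM. No treated library came near an untreated one. The fitted fall was 9.51-fold (log2 fold-change -3.25, SE 0.07, adjusted p = 2.35e-19). In MII Ctrl it was at 2076, 1975 and 2058 CPM and in MII TGFb at 1254, 1227 and 1234 CPM, again without overlap but at 1.69-fold (log2 fold-change -0.75, SE 0.03, adjusted p = 1.77e-26). The interaction term, which tests whether the responses of the lines differ, was 2.51 (SE 0.07, adjusted p = 3.67e-26). After TGFβ, MII spheres thus still held 1238 ± 13.8 CPM of HPGD (SD, n = 3), and MI spheres 182 ± 20.9. A long non-coding RNA on the opposite strand shares 314 exon bases with HPGD, but with 481 counts in all libraries against 302517 for HPGD.

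The 2 cyclooxygenases behaved differently from each other. PTGS1, the constitutive isoform at chr9:122370530-122395703 (plus strand), was at 13.4, 12.7 and 13.5 CPM in MI Ctrl and at 25.9, 27.3 and 28.4 in MI TGFb. It rose 1.95-fold, with a log2 fold-change of 0.96 (SE 0.08, adjusted p = 2.28e-09) that lies just short of the DEG limit. In MII it was already at 40.2, 38.2 and 36.3 CPM without TGFβ and at 35.5, 36.5 and 38 CPM with it, so the groups overlapped (log2 fold-change -0.09, SE 0.06, adjusted p = 0.221). The responses of the lines differed by -1.05 (SE 0.10, adjusted p = 2.04e-10). TGFβ-treated MI spheres did not reach the PTGS1 level of untreated MII spheres.

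PTGS2, the inducible isoform at chr1:186671791-186680922 (minus strand), was at 23.6, 24.5 and 22.8 CPM in MI Ctrl and fell to 7.08, 9.05 and 9.97 CPM in MI TGFb. That was 2.85-fold lower (log2 fold-change -1.51, SE 0.10, adjusted p = 8.69e-11). In MII it moved the other way, from 9.07, 7.7 and 8.17 CPM to 10.8, 10.7 and 10.3 CPM (log2 fold-change 0.33, SE 0.12, adjusted p = 0.0149). This small rise was not called with DESeq2 (adjusted p = 0.058) or without MII Ctrl replicate 2 (0.0871), whereas the difference between the lines, 1.85 (SE 0.15, adjusted p = 2.13e-12), was called under all 17 alternatives. MI TGFb and MII Ctrl overlapped. PACERR, an antisense RNA at the PTGS2 start, shares 219 exon bases with it and had 145 counts in all libraries against 3930, and the counts ignored strand, so reads of the shared stretch cannot be assigned.

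PLA2G4A encodes cytosolic phospholipase A2, which releases the arachidonic acid that cyclooxygenases use, and lies at chr1:186828949-186988981 (plus strand). It was at 12.9, 11.2 and 13.6 CPM in MI Ctrl and at 25.4, 26 and 28.6 CPM in MI TGFb, a 2.01-fold rise (log2 fold-change 1.01, SE 0.09, adjusted p = 4.6e-09) just inside the DEG limit. In MII it went from 51.5, 52.9 and 56.4 CPM to 66.7, 66.4 and 67.4 CPM, 1.22-fold (log2 fold-change 0.28, SE 0.06, adjusted p = 1.83e-05). The 4 sphere groups stood in the order MII TGFb, MII Ctrl, MI TGFb and MI Ctrl, with no overlap between neighbours. The MII response was smaller than the MI response by 0.72 on the log2 scale (interaction -0.72, SE 0.10, adjusted p = 6.08e-07).

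The terminal synthases changed by at most 0.53 on the log2 scale. PTGES, the microsomal and inducible prostaglandin E synthase (chr9:129738331-129753042, minus strand), was at 1203, 1196 and 1185 CPM in MI Ctrl and 1003, 937 and 961 CPM in MI TGFb, a fall of 0.39 on the log2 scale (SE 0.05, adjusted p = 1.36e-06). In MII it was at 290.3, 308 and 289 CPM without TGFβ and 299.7, 308 and 315 CPM with it, and no difference was detected (log2 fold-change 0.02, SE 0.04, adjusted p = 0.678). PTGES3, also known as the p23 co-chaperone of HSP90 and a cytosolic synthase (chr12:56663341-56688408, minus strand), rose in both lines, from 153 ± 2.56 to 234 ± 3.29 CPM in MI and from 136 ± 3.94 to 174 ± 6.01 CPM in MII (SD, n = 3). The log2 fold-changes were 0.53 (adjusted p = 9.83e-09) and 0.32 (adjusted p = 2.53e-09). PTGES2, a membrane-associated synthase (chr9:128120693-128128462, minus strand), was at 51.6 ± 0.109 CPM in MI Ctrl and 51.4 ± 3.06 in MI TGFb (adjusted p = 0.227). It fell by 0.22 (log2) in MII (SE 0.05, adjusted p = 0.000175), from 94.3 ± 1.95 to 83 ± 5.77 CPM.

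The 2 receptors are coupled to cyclic AMP. PTGER4 (EP4; chr5:40679915-40693735, plus strand) was at 3.63, 2.99 and 3.58 CPM in MI Ctrl and 8.56, 8.07 and 10.2 CPM in MI TGFb, 2.48-fold higher (log2 fold-change 1.31, SE 0.14, adjusted p = 1.11e-07). In MII it fell from 19.8, 23.1 and 24.3 CPM to 14.8, 13.9 and 16.1 CPM, 1.55-fold (log2 fold-change -0.63, SE 0.09, adjusted p = 3.02e-08). Neither pair of groups overlapped, and the responses had opposite directions (interaction -1.93, SE 0.17, adjusted p = 5.61e-12). PTGER2 (EP2; chr14:52314305-52328598, plus strand) had 5, 6, 1 and 1 counts in total in MI Ctrl, MI TGFb, MII Ctrl and MII TGFb. SLCO2A1, the prostaglandin uptake transporter (chr3:133932701-134052184, minus strand), had 7, 16, 12 and 3. The count filter left both out of the main test, and with no filter neither passed the threshold in either line (adjusted p 0.417 to 0.986).

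**Figure D2:**
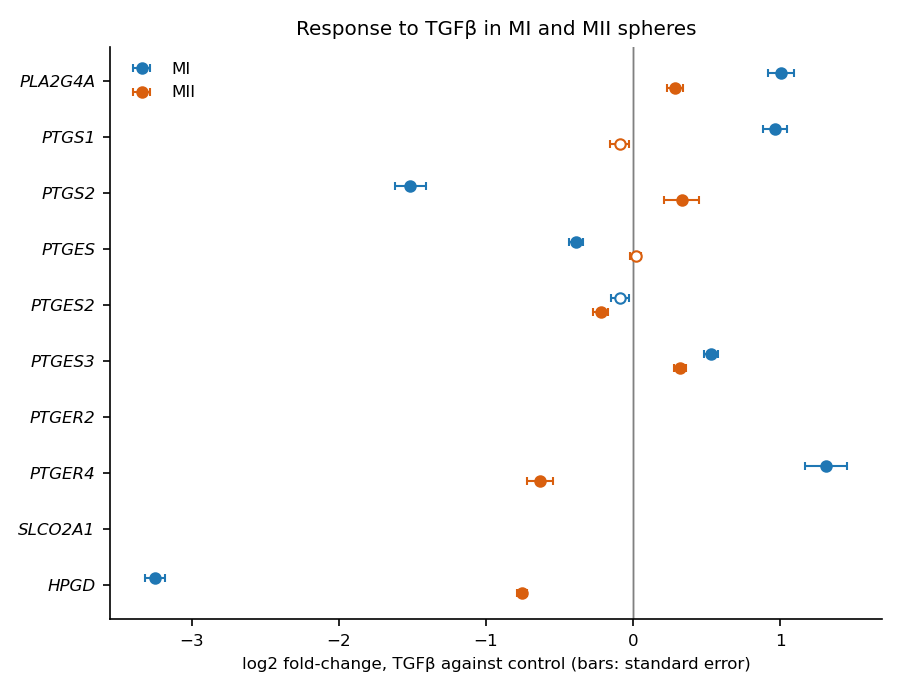
log2 fold-change with TGFβ (x axis) of the 8 tested genes in MI (blue) and MII (orange) spheres, 3 libraries against 3; bars are standard errors, filled points had an adjusted p under 0.05, and PTGER2 and SLCO2A1 were not tested. HPGD lies at -3.25 in MI and -0.75 in MII, and PTGS2 and PTGER4 lie on opposite sides of 0 in the 2 lines.

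Over the 8 genes the response differed between the lines for 7 (3 terms above 0 and 4 below), where 22.4% of 18591 genes passed the same test (12.6% above and 9.75% below), and for 4 by more than 1 on the log2 scale (HPGD, PTGER4, PTGS2 and PTGS1), against 5.84% of all genes (3.75% above and 2.09% below). The smaller differences were those of PTGES (0.42, SE 0.06, adjusted p = 1.19e-06) and PTGES3 (-0.20, SE 0.06, adjusted p = 0.0212). That of PTGES2 did not pass (-0.12, SE 0.08, adjusted p = 0.337). The summed level of the 6 epithelial markers was higher with TGFβ, at 3684 to 3995 CPM against 1999 to 2052 in MI and at 2407 to 2536 against 1094 to 1144 in MII. KRT5, KRT14, KRT17, TP63 and EPCAM passed the threshold in both lines, and CDH1 in MII (log2 fold-change 0.30) but not in MI (-0.03, adjusted p = 0.578). The 3 mesenchymal markers summed to 14 to 15.7 against 4.19 to 4.86 CPM in MI and to 20.9 to 22.6 against 8.81 to 11.1 in MII, where VIM and CDH2 passed and ZEB1 did not (adjusted p = 0.156 and 0.539). Their part in the responses was not tested. Fewer cells of a kind and less RNA per cell cannot be told apart in these bulk libraries.

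Of 43 other genes of the pathway, listed with earlier results known, 26 were tested in MI and 9 rose and 7 fell with TGFβ, where 56% of all genes were called. The DEGs were ALOX15B, a lipoxygenase (log2 fold-change 1.23, adjusted p = 2e-12), the secreted phospholipase PLA2G2A (1.11, adjusted p = 2.38e-06) and ALOX5AP, the partner protein of 5-lipoxygenase. ALOX5AP passed the filter only through MI TGFb, with 46 counts there and 1 in MI Ctrl, a ratio of 47.4 with a 95% interval from 8.09 to 1911 (exact binomial, counting error only). In MII 19 were tested, and 3 rose and 7 fell, where 57.6% of all genes were called. The DEGs were PLA2G6, a calcium-independent phospholipase (-1.06, adjusted p = 6.3e-14), and PTGR2, which reduces the keto-prostaglandins that HPGD makes (-1.02, adjusted p = 0.00196). ABCC4, the exporter of prostaglandins, rose by 0.57 in MI and fell by 0.54 in MII, and its response differed between the lines (interaction -1.10, adjusted p = 6.77e-13), as did that of the thromboxane synthase TBXAS1 (1.46, adjusted p = 0.00471).

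Without TGFβ the lines themselves differed at every step that could be tested. All 8 tested genes had an adjusted p under 0.05 between MII Ctrl and MI Ctrl, where 64.2% of 17862 genes did, and 5 were DEGs, 3 higher and 2 lower, against 20.1% of all genes (12.5% and 7.62%). In MII, 5 were higher (PTGER4, PLA2G4A, PTGS1, PTGES2 and HPGD) and 3 lower (PTGES, PTGS2 and PTGES3), against 31.7% and 32.5% of all genes. None of the 8 overlapped between the lines, and 67.2% of all genes did not. Their median log2 fold-change was 0.61, against 0.02 over all genes tested.

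PTGER4, PLA2G4A and PTGS1 were higher in MII. PTGER4, at 19.8 to 24.3 CPM in MII Ctrl and 2.99 to 3.63 in MI Ctrl, was 6.65-fold higher (log2 fold-change 2.73, SE 0.11, adjusted p = 8.42e-29). PLA2G4A was 4.3-fold higher (2.11, SE 0.07, adjusted p = 7.94e-33) and PTGS1 2.92-fold higher (1.54, SE 0.07, adjusted p = 3.61e-26). The comparison with TGFβ in MI shares the MI Ctrl libraries, and there the same 3 genes had log2 fold-changes of 1.31, 1.01 and 0.96.

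The inducible synthases were lower in MII. PTGES stood at 296 ± 10.9 CPM in MII Ctrl and 1195 ± 8.8 in MI Ctrl (SD, n = 3), a fall of 2.00 on the log2 scale (SE 0.04, adjusted p = 9.34e-46), the only one of the 3 terminal synthases to be a DEG. PTGS2 was 2.86-fold lower (-1.51, SE 0.09, adjusted p = 1.07e-21). PTGES2 was 1.84-fold higher (0.88, SE 0.05, adjusted p = 4.95e-23) and PTGES3 differed by -0.16 (SE 0.04, adjusted p = 0.00026). HPGD, at the breakdown end, was 1.26-fold higher (0.33, SE 0.03, adjusted p = 2.15e-12).

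Among the other 43 genes, 24 were tested between the untreated lines, 6 were higher and 12 lower in MII, and 11 were DEGs, where 64.2% of all genes were called and 20.1% were DEGs. Of the 8 phospholipases tested among them, 6 were called lower and 1 higher, and 4 were lower DEGs. These included PLA2G4E (-5.74, adjusted p = 4.39e-21) and PLA2G4F (-2.16, adjusted p = 1.51e-19). PLA2G4E had 355 counts in MI Ctrl and 6 in MII Ctrl, a ratio of 56.5 with a 95% interval from 25.7 to 155 (exact binomial, counting error only). The lowest adjusted p among the lower genes were those of ALOX15B (adjusted p = 7.42e-39, 1850 counts in MI Ctrl against 2 in MII Ctrl, a ratio of 884 with a 95% interval from 244 to 7303) and of the reductase AKR1B1 (-1.81, adjusted p = 9.43e-39). ALOX15B, PLA2G4E and the other lower phospholipase DEGs PLA2G2A and PLA2G4D passed the count filter only through MI Ctrl, the group where they were higher. Their calls are therefore descriptions and support nothing. The DEG counts that include them cannot be set against the shares of all genes. The higher DEGs were ABCC4 (2.66, adjusted p = 2.94e-43), AKR1C3, which makes prostaglandin F (1.49, adjusted p = 6.51e-39), PTGR1 (1.44, adjusted p = 2.97e-22) and TBXAS1 (2.23, adjusted p = 4.19e-11).

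**Figure D3:**
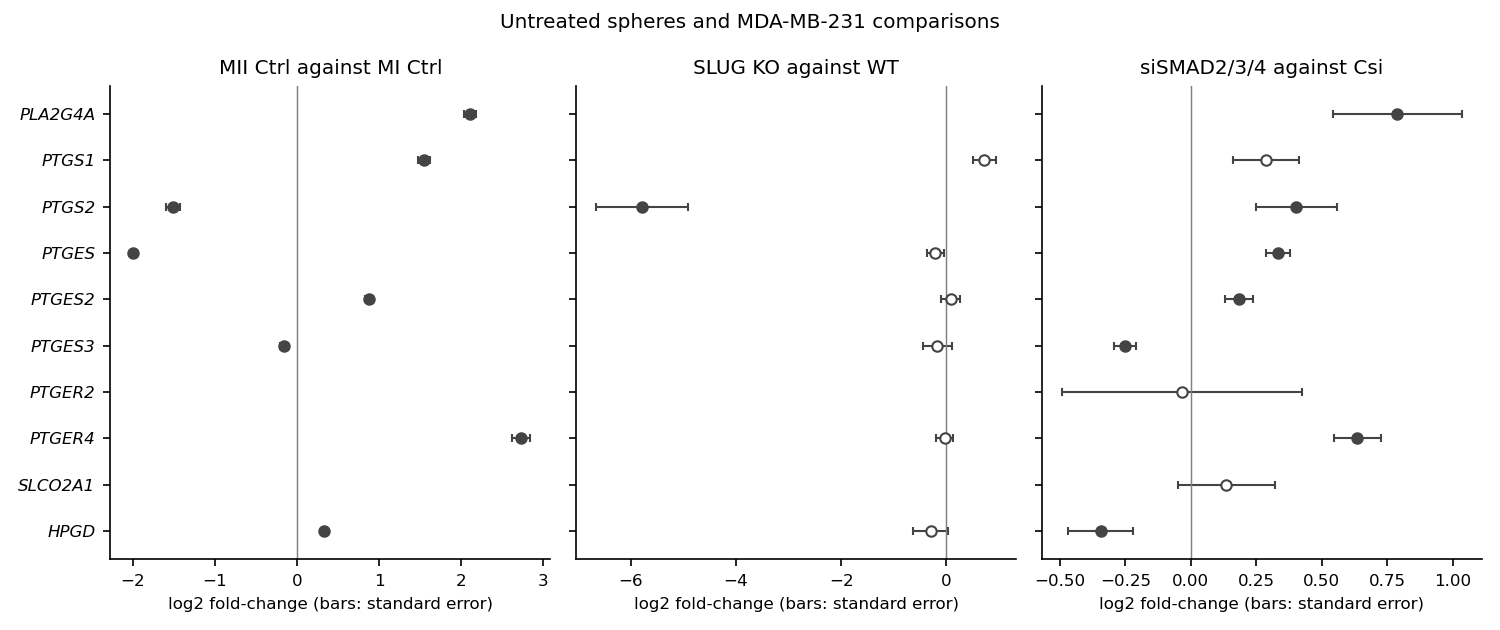
log2 fold-change (x axes, which differ between panels) of the tested genes between the untreated sphere lines (MII minus MI), the libraries labelled SLUG KO and WT, and the SMAD and control siRNA libraries, 3 libraries against 3 in each; bars are standard errors and filled points had an adjusted p under 0.05. All 8 tested genes are filled in the sphere panel, only PTGS2 (at -5.78, on 1 count in the libraries labelled SLUG KO) in the SLUG panel, and 7 of 10 in the siRNA panel.

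In MDA-MB-231 the libraries labelled SLUG KO differed from WT in 1 of the 7 tested genes, PTGS2, which was lower, where 3.33% of 17428 genes passed the same threshold (1.45% higher and 1.89% lower). That gene was also the only DEG, against 3.05% of all genes (1.25% higher and 1.8% lower). It passed the count filter only through WT, the group where it was higher, so the count is a description and supports nothing. PTGS2 had 38, 12 and 31 counts in the 3 WT libraries and 0, 0 and 1 in the libraries labelled SLUG KO, so no library of one group reached the other. In CPM these were 1.43, 0.498 and 1.25 against 0, 0 and 0.0453. With 1 count the ratio is imprecise, and WT held 74.1 times as much, with a 95% interval from 12.9 to 2962 (exact binomial, counting error only). The fitted log2 fold-change was -5.78 (SE 0.88, adjusted p = 0.0164), and its size depends on the prior count of the fit. The call did not hold when any single library labelled SLUG KO (adjusted p 0.098 to 0.110) or WT replicate 1 (0.0677) was left out, while the fitted log2 fold-change was then -5.26, -5.35 and -7.71, and -5.47.

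PLA2G4A, the step before PTGS2, had 16, 5 and 18 counts in WT and 0 in each library labelled SLUG KO, at least 11.9-fold lower with the floor set at 3 counts over the group. The count filter left it out of the main test. It was called lower with DESeq2 (adjusted p = 0.00249) and with no filter (adjusted p = 0.00526), but not without a library labelled SLUG KO (0.177 to 0.182). PTGER2 had 59 counts in WT and 16 in the libraries labelled SLUG KO, and SLCO2A1 16 and 2. Neither was in the main test.

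HPGD was low in both groups. Its 19, 15 and 23 counts in WT and 14, 12 and 17 in the libraries labelled SLUG KO corresponded to 0.754 ± 0.156 and 0.625 ± 0.126 CPM (SD, n = 3), and the groups overlapped (log2 fold-change -0.30, SE 0.33, adjusted p = 0.658). PTGS1 was at 3.04, 3.4 and 4.63 CPM in WT and 6.16, 6.12 and 6.3 in the libraries labelled SLUG KO. These did not overlap, but the difference did not pass the threshold (0.72, SE 0.22, adjusted p = 0.146). The libraries of 3 of the 7 tested genes did not overlap, and 31.3% of all genes did so. PTGES, PTGES2, PTGES3 and PTGER4 had log2 fold-changes between -0.21 and 0.08 with adjusted p between 0.5 and 0.927. PTGES3 varied widely in WT, where replicate 2 held 131.1 CPM against 231 and 272 in the other libraries.

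Without WT replicate 2, 5 genes were called, where 5592 of 17909 genes were: PTGS2, PLA2G4A, PTGER2 and PTGES3 lower and PTGS1 higher. The log2 fold-changes were then 0.68 for PTGS1 (adjusted p = 0.0116), -0.41 for PTGES3 (adjusted p = 0.00365), -7.01 for PLA2G4A (adjusted p = 0.000233) and -2.11 for PTGER2 (adjusted p = 0.00509). That of PTGS2 was -6.11 (adjusted p = 1.51e-05), and HPGD (-0.40), PTGES (-0.24), PTGES2 (0.20) and PTGER4 (-0.01) were not called (adjusted p 0.0719 to 0.951). PTGS2, PLA2G4A and PTGER2 entered this fit only through WT, the group where they were higher, so their calls are descriptions and support nothing. With 0 PLA2G4A counts in the libraries labelled SLUG KO, the size of its change depends on the prior count of the fit. Among the other 43 genes, 20 were tested in the full comparison, and ALOX5, 5-lipoxygenase, was higher (log2 fold-change 1.83, adjusted p = 0.0152) and TBXAS1, named after its value was seen, lower (-0.96, adjusted p = 0.041), where 3.33% of all genes were called. Without WT replicate 2 these were 2.12 (adjusted p = 1.12e-07) and -0.87 (adjusted p = 0.000186). In that fit 11 of the other pathway genes were called, where 5592 of 17909 genes were.

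In the siRNA libraries all 10 genes had enough counts, and 7 passed the threshold between siSMAD2/3/4 and Csi, where 36% of 17696 genes did (16.3% higher and 19.7% lower): PLA2G4A, PTGS2, PTGES, PTGES2 and PTGER4 were higher, and PTGES3 and HPGD lower. None was a DEG with edgeR or DESeq2, since the largest change was 0.79, and 1.9% of all genes were (0.978% higher and 0.927% lower). The libraries did not overlap for 8 of 10 genes, against 44.9% of all genes. The median log2 fold-change of the 10 was 0.24, against 0.00 over all genes tested. The flow cell in the file headers differed for siSMAD2/3/4 replicates 1 and 2. With it as a term the comparison rests on siSMAD2/3/4 replicate 3 alone against Csi, so only log2 fold-changes are given. These were then 1.06 for PLA2G4A, 0.42 for PTGS2 and -0.20 for HPGD.

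PTGES, PTGER4 and PTGES3 had the lowest adjusted p of the 10. PTGER4 was at 9.12, 9.52 and 8.41 CPM in Csi and 13.2, 14.3 and 14.6 in siSMAD2/3/4, 1.55-fold higher (log2 fold-change 0.64, SE 0.09, adjusted p = 9.89e-07). PTGES was at 96.5, 99 and 102.3 CPM in Csi and 133, 127 and 117 in siSMAD2/3/4, 1.26-fold higher (0.33, SE 0.05, adjusted p = 4.6e-07), and PTGES3 fell from 330.4 ± 20.3 to 278 ± 6.87 CPM (SD, n = 3; -0.25, SE 0.04, adjusted p = 1.17e-05). These 3 genes kept their calls under every alternative, with the flow cell term left aside.

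PLA2G4A was at 1.14, 0.843 and 1.33 CPM in Csi and 1.93, 1.52 and 2.29 in siSMAD2/3/4, on 115 and 196 counts in total (log2 fold-change 0.79, SE 0.25, adjusted p = 0.0121). PTGS2 was at 3.39, 3.32 and 2.52 CPM and 4.01, 4.11 and 4.09 CPM (0.40, SE 0.15, adjusted p = 0.0411). HPGD was at 5.73, 6.06 and 6.62 CPM and 4.98, 4.29 and 5.32 CPM (-0.34, SE 0.12, adjusted p = 0.0278). All 3 pairs stood apart by little, and the last 2 calls were made under only 5 and 6 of the alternatives, with the flow cell term left aside. PLA2G4A was not called without Csi replicate 2 (0.62, adjusted p = 0.0758) or siSMAD2/3/4 replicate 3 (0.64, adjusted p = 0.0827). PTGES2 was 1.14-fold higher (0.18, SE 0.05, adjusted p = 0.00698), and was not called without siSMAD2/3/4 replicate 2 (0.15, adjusted p = 0.0545). With the flow cell as a term it was at 0.11. PTGS1 (0.29, SE 0.13, adjusted p = 0.0798), SLCO2A1 (0.14, SE 0.19, adjusted p = 0.62) and PTGER2 (-0.04, SE 0.46, adjusted p = 0.965) did not pass. Of the other 43 genes, 24 were tested, and 4 were higher and 4 lower, where 36% of all genes were called. Without siSMAD2/3/4 replicate 1 these 8 calls became 3, and without Csi replicate 3 they became 4.

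Across the 8 groups HPGD stood in the order MII Ctrl, MI Ctrl, MII TGFb, MI TGFb, Csi, siSMAD2/3/4, WT and the libraries labelled SLUG KO, and only WT and the libraries labelled SLUG KO overlapped as neighbours. PTGS2 stood in the order MI Ctrl, MII TGFb, MI TGFb, MII Ctrl, siSMAD2/3/4, Csi, WT and the libraries labelled SLUG KO, and MI TGFb and MII Ctrl overlapped. PTGES was highest in MI Ctrl, then in MI TGFb, and lowest in the libraries labelled SLUG KO at 39 ± 1.9 CPM, and its only overlapping neighbours were MII TGFb and MII Ctrl. PTGER4 cut across the lines, with MII Ctrl highest at 22.4 ± 2.35 CPM, then WT at 15.4 ± 0.691, and MI Ctrl lowest at 3.4 ± 0.358 (SD, n = 3). SLCO2A1 was above 1 CPM only in Csi (2.55 ± 0.572) and siSMAD2/3/4 (2.81 ± 0.36), and WT, the same cell line under another batch label, held 0.214 ± 0.148 CPM.

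The level of the inducible cyclooxygenase relative to that of the degrading enzyme was taken as the log2 ratio of PTGS2 to HPGD counts per kilobase, with 0.5 added to each count. It was -6.09 ± 0.0934 in MI Ctrl and -4.38 ± 0.202 in MI TGFb, and -7.92 ± 0.0895 in MII Ctrl and -6.85 ± 0.0287 in MII TGFb (SD, n = 3). HPGD mRNA exceeded PTGS2 mRNA in every sphere library, by least in MI TGFb, and TGFβ-treated libraries lay above untreated ones in both lines. In MI both transcripts fell with TGFβ and HPGD fell further, whereas in MII HPGD fell and PTGS2 rose. The ratio was near 0 in MDA-MB-231, at 0.377 ± 0.648 in WT, -0.991 ± 0.337 in Csi and -0.238 ± 0.169 in siSMAD2/3/4. In the libraries labelled SLUG KO it was -4.34 ± 0.705, and on 1 PTGS2 count this value depends on what is added (-3.58 with 1 added).

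**Figure D4:**
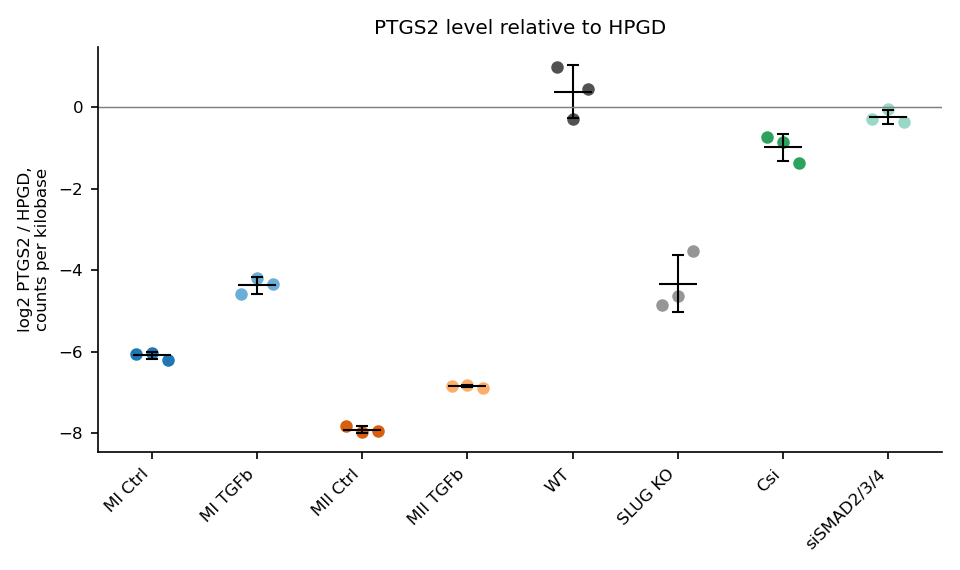
log2 ratio of PTGS2 to HPGD counts per kilobase (y axis) in each of 24 libraries; points are libraries, and black marks and bars are the mean and SD of 3. Sphere groups lie between -7.92 and -4.38 on average, WT, Csi and siSMAD2/3/4 between -0.991 and 0.377, and the libraries labelled SLUG KO at -4.34.

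The genes most like HPGD over the 6 groups of its batch label, by root mean square difference of centred log2 CPM group means among 12777 protein-coding genes, were TRIM31 (0.361), DHRS9 (0.582) and PSCA (0.779), where the HPGD means spanned 11.5 log2 units. TRIM31, a ubiquitin ligase, was at 520 CPM in MI Ctrl and 35.8 in MI TGFb, and at 694 and 252 CPM in MII Ctrl and MII TGFb. PTGS1 was most like GOLGA7B (0.184), CYP39A1 (0.205) and CSGALNACT1 (0.225), and PTGS2 most like ST6GAL1 (0.509), GAREM1 (0.534) and BCL11A (0.534). ST6GAL1, a sialyltransferase, was at 87.7 CPM in MI Ctrl, 34.4 in MI TGFb, 28.2 in MII Ctrl and 37.8 in MII TGFb. These likenesses are over 6 group means and describe levels only.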

How the data were processed

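RNA-seq was done in 24 libraries of 8 groups of 3 (groups and replicates per the labels). The authors' reads were trimmed with Trimmomatic and aligned with STAR to GRCh38.p13, and the deposited files hold raw read counts per gene from featureCounts 2.0.0 on GENCODE 38, with a mapping quality of at least 30, multi-mapping reads left out and strand ignored although the kit was stranded. The labels also name DESeq2.

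From these counts, CPM were computed after TMM scaling over all 24 libraries, and also divided by exon length. Fits used only the libraries of the groups compared, with edgeR 4.0.16 (R 4.3.3): filterByExpr, TMM, quasi-likelihood test, group only, Benjamini-Hochberg over all genes tested. Called means an adjusted p under 0.05, and DEGs also exceeded 1 in absolute log2 fold-change. Standard errors are the absolute log2 fold-change over the square root of the quasi-likelihood F. Because each comparison has its own scaling, a fitted fold can differ slightly from the ratio of the CPM. The fits were also run on counts simulated from the mean levels and dispersions of these libraries. Such counts hold no outlying library, so they cannot show how a fit behaves with one. Totals of 14124688 to 38406952 counts per library set the precision, and intervals and floors cover counting error only. No exact permutation test of 3 against 3 can give a p below 0.1, so none was used. The genes, the 43 other pathway genes and the comparisons were chosen with earlier results of these data known. In each comparison the text names all 10 genes, up to 4 other pathway DEGs per direction with the smallest adjusted p, and the targeted and TGFβ response genes (1 of which is not reported here), and for HPGD, PTGS1 and PTGS2 the 3 protein-coding genes (mean of at least 1 CPM) with the smallest root mean square difference of centred log2(CPM + 0.1) means over the 6 groups of 1 batch label.

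Alternatives were DESeq2 1.42.0, its size factors in edgeR, no filter, at least 10 counts in every library, the replicate number as a block, each library left out, the 12 sphere libraries in 1 fit, and the flow cell as a term. Same-numbered replicates did not deviate together (correlations of deviations -0.123 to 0.032). No pairing by number was seen, though this check cannot exclude it. No 2 replicates agreed within sampling noise. The start regions came from RefSeq on GRCh38.p14. The labels and the methods differ on read length and RNA input, which the counts cannot settle. Accessibility (ATAC-seq) samples were not analysed here.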

Additional observations from a re-analysis of the deposited data

Results flagged for a closer look

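The TGFβ response differed between MII and MI by the interaction term in 7 of the prostaglandin genes (edgeR, 12 sphere libraries, values are MII minus MI on the log2 scale). These were HPGD at 2.51, PTGS2 at 1.85, PTGES at 0.42, PTGES3 at -0.20, PLA2G4A at -0.72, PTGS1 at -1.05 and PTGER4 at -1.93. HPGD fell in both lines, by less in MII. PTGS2 and PTGER4 had called changes in opposite directions in the lines. The PTGS2 rise in MII was not called with DESeq2 (adjusted p = 0.058) or without MII Ctrl replicate 2 (0.0871, edgeR). PLA2G4A and PTGES3 rose in both lines, by less in MII, and the PTGES3 difference lost its call under some alternatives. PTGS1 and PTGES had a called change in MI only. Of the 18591 genes tested, 22.4% had such a difference.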

How the results depend on the processing

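In the spheres, the 7 genes called in the MI response and the 8 called between the untreated lines were called under all 12 alternatives, and PTGES2 in the MI response under none. The 4 DEGs of the MI response became 3 to 5 when a library was left out. Over the 12 alternatives PLA2G4A lay between 0.946 and 1.08 and PTGS1 between 0.929 and 1.01, on both sides of the DEG limit. In the MII response PTGS2 lost its call with DESeq2 and without MII Ctrl replicate 2, and PTGES, not called, turned to -0.0196 with at least 10 counts in every library. In the interaction only PTGES3 lost its call, with no filter (adjusted p = 0.143) and without MII Ctrl replicate 3 (0.0871) or MII TGFb replicate 1 (0.0519). At least 10 counts in every library left 11 of 18 calls among the other pathway genes between the untreated lines, where fewer genes were tested.

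Between the libraries labelled SLUG KO and WT, the 1 called gene became 2 with DESeq2, 2 with no filter and 0 with at least 10 counts, where PTGS2 is not tested, and 0 to 5 when a library was left out (5 without WT replicate 2, and 0 without WT replicate 1 or any library labelled SLUG KO). The 1 DEG became 2, 2 and 0, and 0 to 3. The 2 other pathway calls became 5, 4 and 1, and 0 to 11 (11 without WT replicate 2, otherwise 0). Over all genes 581 calls became 1213 with DESeq2, 973 with no filter, 260 with at least 10 counts and 255 with the replicate block. When a library was left out they became 133 to 5592, with 5592 of 17909 genes called without WT replicate 2. Differences near 0 changed sign: that of PTGER4 was 0.0163 with DESeq2, 0.0399 with no filter and -0.0375 to 0.0136 when a library was left out, that of PTGES2 was -0.00691 to 0.202, and that of PTGES3 was -0.41 (without WT replicate 2, where it was called) to 0.0477. In siSMAD2/3/4 against Csi the fit with the flow cell as a term rests on siSMAD2/3/4 replicate 3 alone, and PLA2G4A was then at 1.06. The 8 other pathway calls became 3 to 7 when a library was left out (3 without siSMAD2/3/4 replicate 1 and 4 without Csi replicate 3). PTGER2, at -0.04, was at 0.74 with the flow cell and at -0.61 to 0.27 when a library was left out, and SLCO2A1 at -0.0272 to 0.32. The cause of these changes was not tested.

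With the replicate number as a block, the number of called genes stayed at 7 in MI, 6 in MII, 8 between the untreated lines, 7 in the interaction, 1 for the libraries labelled SLUG KO and 7 for siSMAD2/3/4, and the other pathway calls for the libraries labelled SLUG KO went from 2 to 1. The ratio of PTGS2 to HPGD in the libraries labelled SLUG KO moved from -4.34 to -3.58 with 1 added to each count. With DESeq2 size factors, 7 of the 80 group mean levels moved by more than 1 SD. Few counts limit PTGER2 and SLCO2A1 in the spheres and PTGS2, PLA2G4A and HPGD in WT and the libraries labelled SLUG KO.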
